A study of Mus musculus with 6 samples.

Results

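The insulin-like growth factor (IGF) axis was described here in sorted Lewis lung carcinoma (LLC) cells through 10 genes taken by symbol: Igf1, Igf1r, Insr, Irs1, Irs2, Igfbp2, Igfbp3, Igfbp4, Igfbp5 and Igfbp7. Of these, 9 were listed with values, among 18182 genes in all, and 8 passed the filter on low counts, among 13353 genes tested. The expression of Igf1 was not analysed here. LLC is a mouse lung cancer line, and its cells carried red fluorescent protein (LLC-RFP) so that they could be sorted by flow cytometry from primary tumours under the skin of wild type C57BL/6 mice. In 3 libraries the mice had received LLC-RFP cells only (LLC alone), and in 3 libraries they had received LLC-RFP cells together with bone marrow-derived mesenchymal stem cells (LLC with BMSCs). The comparison asks how the transcripts of the tumour cells differed when BMSCs were co-injected. The labels give no age of the mice, while the paper's methods state an age, and female sex, for the mice of its allograft growth experiments. The labels do not say whether each library came from its own mouse, so that p-values measure the spread between these libraries only. All libraries share the LLC-RFP line, and no library of BMSCs or of cultured LLC cells was analysed here.

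IGF1 and IGF2 are peptide hormones that bind the receptor tyrosine kinase encoded by Igf1r, and insulin binds the related kinase encoded by Insr. Both receptors phosphorylate the docking proteins IRS1 and IRS2, which recruit PI3-kinase and so pass the signal to AKT and mTOR, a route that drives growth and survival in many carcinomas. The secreted IGF-binding proteins hold the ligands in tissue and blood and limit or prolong their access to the receptor, and proteases that cut the binding proteins set the ligands free.

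The estimated counts summed to between 33476347 and 46189113 fragments per library, and 3 counts corresponded to 0.065 to 0.0896 CPM (counts scaled to a common library total). edgeR called 4210 genes higher (31.5% of those tested) and 4183 lower (31.3%) in LLC with BMSCs at an adjusted p under 0.05, so that 62.9% of all tested genes differed and a call on its own does not set a gene apart. The FPKM values (fragments scaled by transcript length and by library total) of the groups did not overlap for 70.6% of tested genes. The libraries also differed by gene length, which was seen when the tested genes were split by length into 5 equal bins. LLC alone replicate 3 had a median deviation in log2 CPM from the mean of the libraries of -0.37 in the bin of the longest genes and of 0.31 in the bin of the shortest. The median log2 fold change was 0.26 in the longest bin and -0.28 in the shortest, or 0.16 and -0.18 without that library, against 0.012 over all tested genes. Igf1r, Insr, Irs1 and Igfbp5 belong to the longest bin, so their values are also given after the trend over length had been removed from each library. Krt8, an epithelial keratin, stood at 90.3 to 113.28 FPKM in every library, but it was the only 1 of 7 epithelial and lung markers at 1 FPKM or more in all of them, and Epcam stayed at 0.04 FPKM or below.

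**Figure D1:**
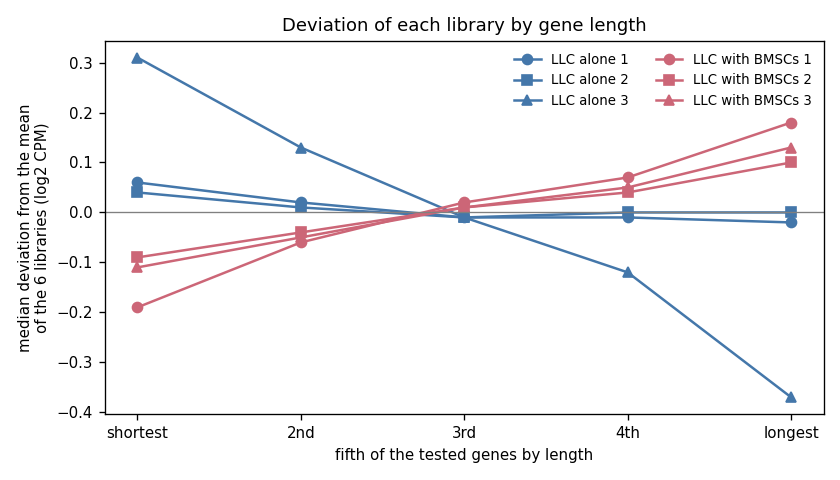
Median deviation of each library from the mean of the 6 libraries, in log2 CPM (vertical axis), for 5 equal bins of tested genes ordered by length (horizontal axis). LLC alone replicate 3 runs from 0.31 in the shortest bin to -0.37 in the longest, and the libraries of LLC with BMSCs run the opposite way.

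In LLC with BMSCs the transcripts of both receptors were higher and those of both receptor substrates were lower, while the binding proteins moved in both directions. The calls of both receptors were lost once the trend over gene length was removed. Igfbp4 rose, Igfbp7 and Igfbp5 fell, and Igfbp3 was found almost only in LLC with BMSCs. Of the 8 tested members, 4 were called higher and 4 lower, and in 8 of 8 the FPKM values of the groups did not overlap. Over all tested genes these shares were 62.9% called and 70.6% without overlap. At an absolute log2 fold change of 1 or more, which 15.8% of tested genes reached with a call (8.65% higher and 7.17% lower), 1 member was higher, Igfbp3, and 2 were lower, Irs2 and Igfbp5. These counts are a description, since Igfbp3 passed the filter on low counts only through the libraries with BMSCs.

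**Figure D2:**
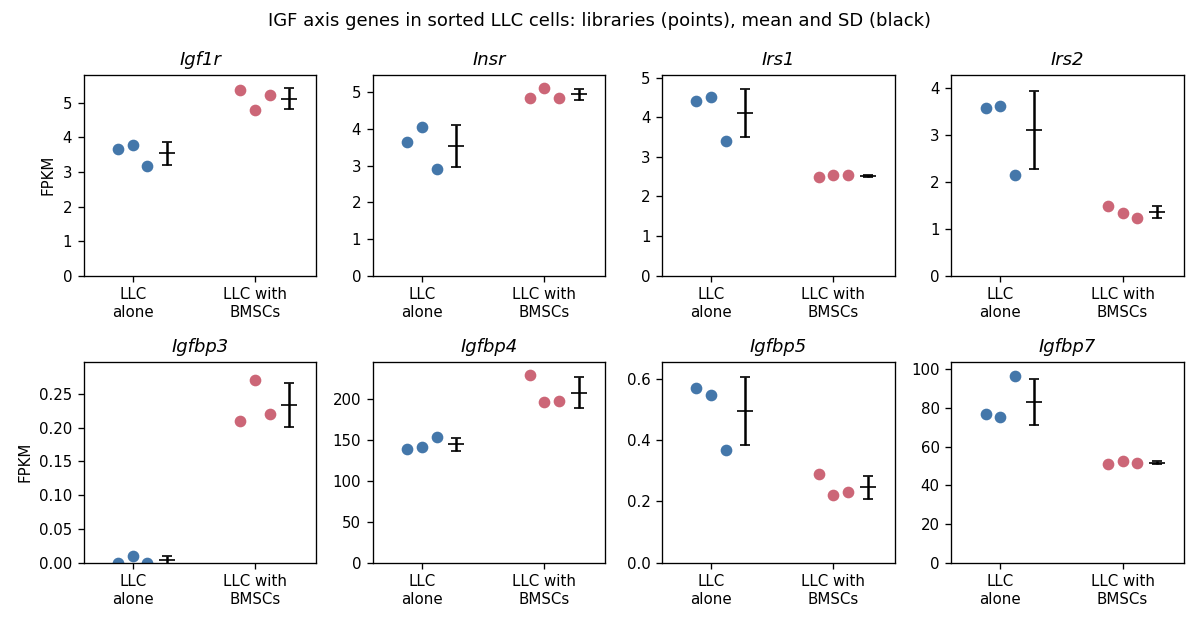
FPKM (vertical axes, each from 0) of the 8 tested members in the 3 libraries of LLC alone (blue points) and the 3 of LLC with BMSCs (red points), with the mean and SD of each group in black. Igf1r, Insr, Igfbp3 and Igfbp4 are higher and Irs1, Irs2, Igfbp5 and Igfbp7 lower in LLC with BMSCs, with no overlap between the groups.

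Igf1r (NCBI gene 16001, chr7:67952827-68233668, plus strand, GRCm38 with the GENCODE annotation) encodes the IGF1 receptor. Its level was 3.67, 3.78 and 3.16 FPKM in LLC alone replicates 1 to 3, and 5.36, 4.78 and 5.21 FPKM in LLC with BMSCs replicates 1 to 3. Every library with BMSCs lay above every library of LLC alone, and LLC alone replicate 3 was the lowest. The mean went from 3.54 ± 0.331 to 5.12 ± 0.301 FPKM (SD over 3 libraries), and the log2 fold change was 0.51 ± 0.084 (SE, edgeR adjusted p = 0.0012). Igf1r has the longest transcripts of the members, at 12150 bases. With the trend over length removed, its log2 fold change was 0.10 and the call was lost (adjusted p = 0.406).

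Insr (NCBI gene 16337, chr8:3122061-3279617, minus strand) encodes the insulin receptor, which also forms hybrids with the IGF1 receptor. Its level was 3.66, 4.05 and 2.92 FPKM in LLC alone and 4.86, 5.11 and 4.86 FPKM in LLC with BMSCs. The groups did not overlap, and LLC alone replicate 3 was again the lowest. The mean went from 3.54 ± 0.574 to 4.94 ± 0.144 FPKM (SD over 3 libraries), with a log2 fold change of 0.46 ± 0.11 (SE, adjusted p = 0.0072). At 9357 bases Insr is also a long gene, and its log2 fold change was 0.13 with the length trend removed, which was not past the threshold (adjusted p = 0.0871). Among 2669 tested genes of the longest bin, 45.6% were called higher and 14.4% lower, and 36.1% were called higher with the trend removed. The calls of both receptors thus depend on how the length trend is treated.

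Irs1 (NCBI gene 16367, chr1:82233101-82291416, minus strand) and Irs2 (NCBI gene 384783, chr8:10984681-11008458, minus strand) encode the docking proteins that both receptors phosphorylate. Irs1 stood at 4.42, 4.5 and 3.41 FPKM in LLC alone and at 2.5, 2.54 and 2.53 FPKM in LLC with BMSCs. The libraries with BMSCs were almost equal to each other, and all lay below the lowest library of LLC alone. The mean went from 4.11 ± 0.608 to 2.52 ± 0.0208 FPKM (SD over 3 libraries) and the log2 fold change was -0.72 ± 0.10 (SE, adjusted p = 0.000581). Irs1, at 9163 bases, is close in length to Insr, which went the other way. Long genes were higher as a group in LLC with BMSCs, opposite to Irs1, and its log2 fold change was -1.05 with the trend removed and -0.84 without LLC alone replicate 3. The annotation places exons of Gm9747 on the opposite strand over 2822 of the 9144 exon bases of Irs1, and the sources used here do not state whether the counting used the strand.

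Irs2 stood at 3.57, 3.62 and 2.15 FPKM in LLC alone and at 1.49, 1.33 and 1.24 FPKM in LLC with BMSCs. LLC alone replicate 3 lay apart from the other libraries of its group, on the side of the libraries with BMSCs, without reaching them. On average Irs2 fell from 3.11 ± 0.835 to 1.35 ± 0.127 FPKM (SD over 3 libraries), a 2.32-fold lower level by edgeR, with a log2 fold change of -1.21 ± 0.20 (SE, adjusted p = 0.00118). Of all tested genes, 5.36% had a lower log2 fold change. The value was -1.42 without LLC alone replicate 3 and -1.29 with the length trend removed. Exons of 9530052E02Rik on the opposite strand cover 162 of its 6323 exon bases.

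The promoters of Irs1, Irs2, Igfbp4 and Igfbp7 are shown because the members of the first pair fell together and those of the second pair, the most abundant binding proteins, moved in opposite directions. Each is the RefSeq window on GRCm38.p6 from 250 bases before the start site to 50 bases from it, read 5′ to 3′ on the strand of the gene. Capitals mark matches, on either strand, to the TATA box TATAAA, the GC box GGGCGG and the E-box CACGTG. The Irs1 window is chr1:82291390-82291689 (minus strand), the Irs2 window chr8:11008880-11009179 (minus strand), the Igfbp4 window chr11:99040994-99041293 (plus strand) and the Igfbp7 window chr5:77407996-77408295 (minus strand).
Irs1: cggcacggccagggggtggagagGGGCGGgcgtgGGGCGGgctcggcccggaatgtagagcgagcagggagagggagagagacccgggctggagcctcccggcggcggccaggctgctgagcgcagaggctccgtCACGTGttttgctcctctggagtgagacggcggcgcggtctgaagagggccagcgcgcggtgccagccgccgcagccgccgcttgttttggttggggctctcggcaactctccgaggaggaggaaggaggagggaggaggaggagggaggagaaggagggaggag
Irs2: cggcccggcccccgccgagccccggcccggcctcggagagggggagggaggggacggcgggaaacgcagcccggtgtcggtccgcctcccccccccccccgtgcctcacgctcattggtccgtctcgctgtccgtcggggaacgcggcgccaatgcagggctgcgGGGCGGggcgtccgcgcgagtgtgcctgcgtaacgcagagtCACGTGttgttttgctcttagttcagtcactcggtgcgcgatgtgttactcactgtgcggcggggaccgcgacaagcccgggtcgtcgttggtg
Igfbp4: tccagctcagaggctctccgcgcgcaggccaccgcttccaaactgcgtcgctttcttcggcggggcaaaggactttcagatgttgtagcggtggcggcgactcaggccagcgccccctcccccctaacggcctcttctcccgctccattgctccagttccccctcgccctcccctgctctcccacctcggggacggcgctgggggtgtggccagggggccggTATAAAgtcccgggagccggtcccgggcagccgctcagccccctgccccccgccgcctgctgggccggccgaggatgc
Igfbp7: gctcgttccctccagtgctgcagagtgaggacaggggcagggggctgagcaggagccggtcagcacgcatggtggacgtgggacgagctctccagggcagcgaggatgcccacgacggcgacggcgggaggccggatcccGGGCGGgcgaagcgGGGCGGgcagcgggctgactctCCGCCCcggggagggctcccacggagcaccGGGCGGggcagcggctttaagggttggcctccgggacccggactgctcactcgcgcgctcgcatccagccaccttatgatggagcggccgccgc

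Irs1 and Irs2 each held 1 E-box, whose first base lies at -115 and -44 relative to the start site, and a match of this kind was found in 7.15% of the 32851 promoter windows of the same length. Irs1 held 2 GC boxes and Irs2 held 1, and 35.7% of windows held at least 1. Igfbp4 held a TATA box with its first base at -28, as did 13.6% of windows anywhere within the window, and it held no GC box. Igfbp7 held 4 GC boxes between -110 and -44, 1 of them on the other strand, and no TATA box. Neither the STAT motif TTCNNNGAA (8.3% of windows) nor the FOXO motif GTAAACA (3.65% of windows) was matched in the windows of the 9 members that had one, Igf1 included, which says only that these letters are not in these windows. The windows of Irs1, Irs2, Igfbp4 and Igfbp7 were 71.3%, 72.0%, 71.3% and 73.3% G and C, against a median of 52.7% over all windows. The motifs were chosen after the windows had been read, and a match describes the sequence and not a bound site.

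In LLC alone the levels of Irs1, Insr, Igf1r and Irs2, from the highest mean to the lowest, overlapped between neighbours in that order, so that no order of receptors and substrates could be read. In LLC with BMSCs the receptors came first, at 4.78 to 5.36 FPKM, followed by Irs1 at 2.5 to 2.54 FPKM and Irs2 at 1.24 to 1.49 FPKM, with no overlap except between Igf1r and Insr. The ratio of Igf1r to Insr was 1.01 ± 0.0745 in LLC alone and 1.04 ± 0.0891 in LLC with BMSCs (SD, n = 3 each, exact two-sided permutation p = 0.7). The ratio of Irs1 to Irs2 was 1.36 ± 0.199 and 1.88 ± 0.184 (exact permutation p = 0.1, adjusted p = 0.143 over 10 quantities), and its groups did not overlap. This ratio was not computed with the length trend removed. That setting moved the log2 fold change of Irs1 from -0.72 to -1.05 and that of Irs2 from -1.21 to -1.29, which brought them closer together. With 3 libraries against 3 the smallest p of this test is 0.1, so that none of these ratios could pass 0.05.

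Igfbp4 (NCBI gene 16010, chr11:99041244-99054392, plus strand) encodes a binding protein that withholds IGFs from the receptor until it is cut by pappalysin. It was the most abundant member in every library, at 138.59, 141.84 and 154.2 FPKM in LLC alone and 229.93, 197.41 and 197.64 FPKM in LLC with BMSCs. The libraries with BMSCs all lay higher, replicate 1 most of all. On average Igfbp4 rose from 144.9 ± 8.24 to 208.3 ± 18.7 FPKM (SD over 3 libraries), with a log2 fold change of 0.51 ± 0.082 (SE, adjusted p = 0.00107). Its place among all listed genes by FPKM went from between 552 and 576 in LLC alone to between 281 and 356 in LLC with BMSCs. Of all tested genes, 19.7% had a higher log2 fold change, so the rise was moderate in relative size, while in absolute terms it came to 129.9 CPM, from 293.2 to 423.1 CPM. The log2 fold change was 0.60 with the length trend removed.

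Igfbp7 (NCBI gene 29817, chr5:77349240-77408041, minus strand) encodes a secreted relative of the binding proteins with low affinity for IGFs, which is found in the extracellular matrix. Its level was 76.91, 75.24 and 96.71 FPKM in LLC alone and 51.17, 52.3 and 51.71 FPKM in LLC with BMSCs. The libraries with BMSCs were close to each other and lay below those of LLC alone, of which replicate 3 was the highest. On average Igfbp7 fell from 83.0 ± 11.9 to 51.7 ± 0.565 FPKM (SD over 3 libraries), and the log2 fold change was -0.70 ± 0.10 (SE, adjusted p = 0.000626). Igfbp7 is short, at 1121 bases, and short genes were lower in LLC with BMSCs as a group. Its log2 fold change was -0.57 without LLC alone replicate 3 and -0.42 with the length trend removed, a call under both. An exon of Polr2b on the opposite strand covers 85 of its 1209 exon bases, and Polr2b went from 75.3 to 93.0 FPKM (log2 fold change 0.28, adjusted p = 0.00996). The part of the shared bases in the values of Igfbp7 was not tested.

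Igfbp5 (NCBI gene 16011, chr1:72857932-72874884, minus strand) encodes a binding protein that also attaches to the extracellular matrix. It was weakly expressed, at 0.57, 0.55 and 0.37 FPKM in LLC alone and 0.29, 0.22 and 0.23 FPKM in LLC with BMSCs. These values rest on 100 to 152 and 55 to 76 counted fragments per library. The groups did not overlap, and LLC alone replicate 3 was the nearest to the libraries with BMSCs. The log2 fold change was -1.03 ± 0.21 (SE, n = 3 each, adjusted p = 0.0031), and it was -1.20 without LLC alone replicate 3 and -1.24 with the length trend removed.

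Igfbp2 (NCBI gene 16008, chr1:72824503-72852474, plus strand) is the neighbour of Igfbp5, its end lying 5457 bases from the end of that gene. A single fragment was counted for it, in LLC alone replicate 1, and no test was made. In the other libraries a count of 0 allows up to 3 counts, or 0.065 to 0.0896 CPM. The neighbouring genes thus differed in level, Igfbp5 being detected in every library.

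Igfbp3 (NCBI gene 16009, chr11:7206086-7213923, minus strand) encodes the main carrier of IGFs in the blood. Its counts were 0, 1 and 0 fragments in LLC alone and 22, 28 and 23 fragments in LLC with BMSCs, or 0.21, 0.27 and 0.22 FPKM in the latter. It was near the floor in every library of LLC alone and low in every library with BMSCs. The summed counts gave a ratio of 68.3 relative to the library totals, with an exact 95% interval of 11.9 to 2735.7 that covers counting error only. Because the gene passed the filter only through the libraries with BMSCs, its call is no support beyond these counts.

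The tested markers of BMSCs and fibroblasts and of neutrophils, and part of those of macrophages, were higher in LLC with BMSCs, as was Igfbp3. All 11 tested genes of 14 BMSC and fibroblast markers were called higher in LLC with BMSCs, against 31.5% of all tested genes. Of the 11, Col1a1, Dcn and Lum had at most 8 counts in any library of LLC alone. They passed the filter on low counts only through the libraries with BMSCs. The summed level of the 14 markers went from 365.5 to 431.4 CPM in LLC alone to 824.2 to 868.7 CPM. Col3a1, a fibrillar collagen and the most abundant of them, went from between 36.77 and 43.62 to between 98.96 and 101.72 FPKM, and Dcn, the matrix proteoglycan decorin, from 0.11 ± 0.0173 to 6.31 ± 0.223 FPKM (SD, n = 3 each). Of these markers 2 were at 0 in every library of LLC alone. The 12 macrophage markers summed to 24.1 to 28.8 CPM in LLC alone and 36.3 to 38.9 CPM with BMSCs, with 6 of 8 tested called higher and 1 lower. Cd14, the most abundant of these and the co-receptor for bacterial lipopolysaccharide, ran from 8.91 to 10.61 FPKM in LLC alone and from 9.29 to 11.01 FPKM with BMSCs and was not called (adjusted p = 0.587). Cd68, a lysosomal protein of macrophages, fell from 5.55 ± 0.509 to 3.03 ± 0.356 FPKM (log2 fold change -0.89, adjusted p = 0.000501). Adgre1, which encodes the macrophage surface protein F4/80, was at 0 counts in all libraries of LLC alone and at 60, 79 and 63 counts with BMSCs. Among the macrophage markers called higher, Adgre1, Itgam, Ptprc and Mrc1 had at most 9 counts in any library of LLC alone. They passed the filter only through the libraries with BMSCs. The neutrophil markers went from 0.433 to 0.717 CPM to 17.7 to 20.4 CPM, and S100a9, a calcium-binding protein of neutrophils and the most abundant of them, stood at 22.4 ± 2.9 FPKM with BMSCs. All 5 tested neutrophil markers were called higher, but S100a8, S100a9, Csf3r and Mpo had at most 2 counts in any library of LLC alone and could pass the filter only through the libraries with BMSCs. Ly6g, which was not tested, did not rise, with 4, 3 and 1 counts in LLC alone and 3, 1 and 1 with BMSCs. Elane, also not tested, had 0 counts in every library of LLC alone and 11, 10 and 5 with BMSCs. Lymphocyte markers stayed at 0.26 CPM or below and endothelial markers at 1.82 CPM or below in sum. The 2 tested endothelial markers were not called. Muscle and adipocyte markers summed to 3.15 to 6.69 CPM, with 1 of 2 tested called lower (Des, the muscle filament desmin). Both tested epithelial and lung markers were called higher, Krt8 with a log2 fold change of 0.19 (edgeR adjusted p = 0.0374). The other, Krt18, went from 2, 4 and 8 counts to 41, 37 and 37 counts and passed the filter only through the libraries with BMSCs. In such bulk libraries a change in the share of cells of a type cannot be told apart from a change in RNA per cell. The part of these cells in the values of Igfbp3, of Igfbp4 and of the other members was not tested.

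**Figure D3:**
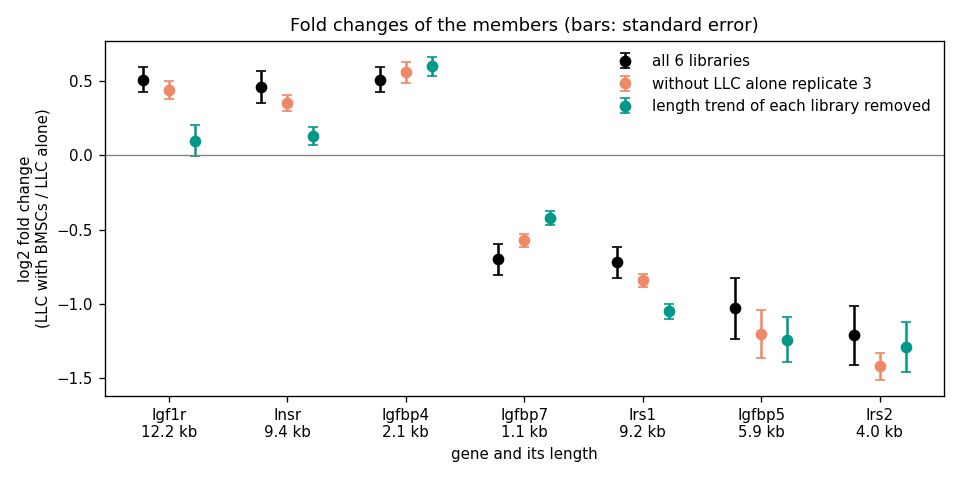
Log2 fold change of LLC with BMSCs over LLC alone (vertical axis; bars, standard error) for 7 members, with the gene length under each name, from all 6 libraries (black), without LLC alone replicate 3 (orange) and with the length trend of each library removed (green). The receptors Igf1r and Insr drop to 0.10 and 0.13 once the trend is removed, while the falls of Irs1, Irs2 and Igfbp5 grow to -1.05, -1.29 and -1.24. Igfbp3 is left out because its fitted value depends on the prior count.

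The composition of the binding protein transcripts shifted more than their sum. The summed FPKM of Igfbp2, Igfbp3, Igfbp4, Igfbp5 and Igfbp7 was 216.1, 217.6 and 251.3 in LLC alone and 281.6, 250.2 and 249.8 in LLC with BMSCs, so the groups overlapped (exact permutation p = 0.3). Igfbp4 made up 64.1%, 65.2% and 61.4% of this sum in LLC alone and 81.7%, 78.9% and 79.1% in LLC with BMSCs. Igfbp7 made up 35.6%, 34.6% and 38.5% and then 18.2%, 20.9% and 20.7%. The share of Igfbp4 was higher by 16.3 percentage points, from 63.6% ± 1.97 to 79.9% ± 1.53 (SD, n = 3 each, exact permutation p = 0.1, adjusted p = 0.143 over 10 quantities). Leaving out any library kept this difference between 15.2 and 17.1 points. The shares were not computed with the length trend removed. That setting moved the log2 fold change of Igfbp7 from -0.70 to -0.42 and that of Igfbp4 from 0.51 to 0.60. Igfbp5 held 0.221% ± 0.0643 of the sum and then 0.0943% ± 0.00778, and Igfbp3 held 0.00153% ± 0.00265 and then 0.0902% ± 0.0168. The shares of these low genes hardly touch the sum. The ratio of the summed binding proteins to Igf1r plus Insr was 32.9 ± 7.38 in LLC alone and 25.9 ± 1.47 in LLC with BMSCs (exact permutation p = 0.1). LLC alone replicate 3 had the highest ratio, 41.3, and without it the difference in log2 went from -0.323 to -0.147. Igf1r and Insr, at 12150 and 9357 bases, are longer than Igfbp4 and Igfbp7, at 2097 and 1121 bases. With the length trend removed the log2 fold changes were 0.10 for Igf1r, 0.13 for Insr, 0.60 for Igfbp4 and -0.42 for Igfbp7. The ratio was not computed under that setting, so its direction there was not tested.

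**Figure D4:**
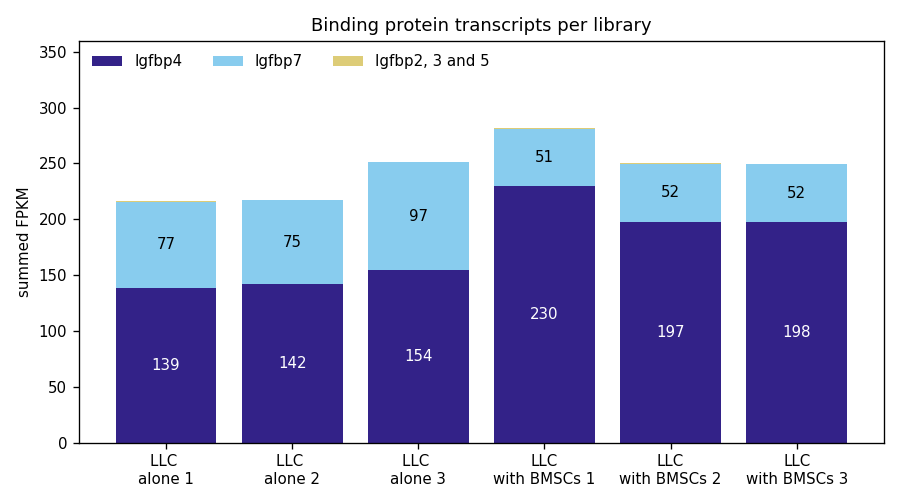
Summed FPKM of the binding proteins in each library (vertical axis, from 0), with Igfbp4 in dark blue, Igfbp7 in light blue and Igfbp2, 3 and 5 together in yellow, which is too thin to see. Igfbp4 is the larger part in all libraries and rises from 61.4 to 65.2% of the sum in LLC alone to 78.9 to 81.7% in LLC with BMSCs.

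The shares of single transcripts within a gene showed no shift of like size. The RefSeq transcript NM_010513 held 73.9% ± 4.87 of Igf1r in LLC alone and 74.7% ± 1.32 in LLC with BMSCs (SD, n = 3 each, exact permutation p = 0.8), and most of the rest was on a transcript that the authors' pipeline had assembled. NM_010517 held 95.8% ± 0.485 and 94.3% ± 1.81 of Igfbp4 (exact permutation p = 0.4). NM_008048 held 98.6% ± 0.308 and 99.0% ± 0.12 of Igfbp7 (exact permutation p = 0.1), whose minor transcript NM_001159518 took the remainder. Only 1 transcript each was listed for Insr, Irs1, Irs2, Igfbp2, Igfbp3 and Igfbp5.

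Around the members, 71 further genes of the pathway were grouped into 6 lists by role. Of these, 59 were tested, with 18 called higher, 14 lower and 27 not called, or 54.2% called against 62.9% of all tested genes, and the median log2 fold change was 0.14. The lists are described by these counts, and nothing particular to them follows from shares near or below the background.

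Among 10 ligands, carriers and receptors outside the members, 5 were tested, of which 1 was called higher and 3 lower. Igf2, the second IGF ligand, was counted at 20, 11 and 13 fragments in LLC alone and at 2, 1 and 3 fragments in LLC with BMSCs. It lay near the floor in both groups, and the summed counts were 7.83-fold lower with BMSCs (exact 95% interval 3.33 to 22.5, counting error only). It passed the filter on low counts only through LLC alone, so its call is no support beyond these counts. Igf2r, the receptor that clears IGF2, stood at 14.2 ± 3.88 and 16.6 ± 0.847 FPKM with overlapping groups (log2 fold change 0.20 ± 0.18, adjusted p = 0.355). Insrr, an orphan kinase of the insulin receptor family, fell from 0.217 ± 0.0153 to 0.09 ± 0.01 FPKM (log2 fold change -1.28, adjusted p = 0.000401). Ghr, the growth hormone receptor, through which growth hormone raises IGF1 in the liver, rose from 5.05 ± 0.58 to 6.69 ± 0.166 FPKM (log2 fold change 0.53, adjusted p = 0.00027). Igfbp6, a binding protein that prefers IGF2, fell from 18.9 ± 1.82 to 8.54 ± 0.191 FPKM (log2 fold change -1.17, adjusted p = 2.04e-05). It is named here after its values were seen.

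Of 8 proteases that cut the binding proteins and inhibitors of these proteases, 4 were tested, with 1 called higher and 2 lower. Stc1 encodes stanniocalcin 1, a secreted inhibitor of pappalysin, and stood at 0.26, 0.33 and 0.29 FPKM in LLC alone and 2.48, 2.93 and 2.99 FPKM in LLC with BMSCs. It had the largest rise among the tested genes of the pathway lists, with a log2 fold change of 3.24 ± 0.13 (SE, adjusted p = 1.09e-06). Its relative Stc2 was counted at 0, 0 and 1 fragments and then at 14, 6 and 7 fragments, a ratio of 25.3 with an exact 95% interval of 4.17 to 1034.9, and it did not pass the filter. The inhibitors of pappalysin were thus both low in LLC alone. Pappa, which encodes pappalysin 1, was not analysed here, and Pappa2 stood at 0.16 ± 0.03 and 0.153 ± 0.0252 FPKM (adjusted p = 0.782). Htra1, a secreted serine protease that cuts binding proteins such as IGFBP5, fell from 86.79, 87.72 and 95.38 FPKM to 49.47, 48.89 and 47.76 FPKM (log2 fold change -0.91 ± 0.062, adjusted p = 1.45e-05). Adam9, a membrane metalloprotease, went from 33.4 ± 2.9 to 28.2 ± 0.395 FPKM (log2 fold change -0.26, adjusted p = 0.0134), and the call was lost without LLC alone replicate 1 (adjusted p = 0.0541) and when the closest libraries of each group were summed into 1.

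Of 13 adaptors and docking proteins at the receptors, 11 were tested, with 5 called higher and 2 lower. Grb2, the adaptor that links receptors to RAS, rose from 28.1 ± 0.623 to 44.5 ± 2.08 FPKM (log2 fold change 0.63, adjusted p = 7.04e-05). Sos1, the RAS exchange factor that GRB2 carries, rose from 6.88 ± 1.12 to 11.1 ± 0.438 FPKM (log2 fold change 0.67, adjusted p = 0.00142), or by 0.35 with the length trend removed, still a call. Gab1, a docking protein of several growth factor receptors, fell from 52.2 ± 5.34 to 33.5 ± 0.769 FPKM (log2 fold change -0.66, adjusted p = 0.000257). Nck1, an adaptor to the actin cytoskeleton, fell from 12.2 ± 0.211 to 8.5 ± 0.588 FPKM (log2 fold change -0.55, adjusted p = 0.000287), and its counts were fractional in all libraries, which marks reads shared with other features.

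Of 12 inhibitors of receptor and IRS signalling, 11 were tested, with 5 called higher and 1 lower. Trib3, a pseudokinase that binds AKT and is induced by stress of the endoplasmic reticulum, was the only called member to fall, from 82.3, 81.71 and 90.95 FPKM to 23.12, 23.06 and 22.54 FPKM. This fall had a log2 fold change of -1.91 ± 0.067 (SE, adjusted p = 5.82e-07). Grb10, an adaptor that binds and restrains both receptors, was near the floor, with 3, 3 and 7 fragments and then 13, 11 and 21 fragments, a ratio of 3.24 (exact 95% interval 1.72 to 6.55, counting error only). Grb10 is among the 5 called higher, but it passed the filter only through the libraries with BMSCs, so its call is no support beyond these counts. Grb14, also among the 5 and named here for its low counts, had 13, 6 and 21 fragments in LLC alone. With BMSCs it had 25, 26 and 24 fragments (edgeR adjusted p = 0.0465). LLC alone would not have passed the filter by itself, so the call of Grb14 is no support beyond its counts either. Ptprf, a receptor phosphatase that acts on the insulin receptor, rose from 0.0833 ± 0.0208 to 0.237 ± 0.0503 FPKM (log2 fold change 1.44, adjusted p = 0.00137).

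Of 25 genes of the PI3K-AKT-mTOR core, all 25 were tested, with 6 called higher, 5 lower and 14 not called. Akt1, the kinase that PI3-kinase signals to, rose from 86.8 ± 1.46 to 122.6 ± 5.45 FPKM (log2 fold change 0.48, adjusted p = 0.000274). Pik3cd, the catalytic subunit of PI3-kinase that is best known in leukocytes, rose from 2.02 ± 0.203 to 3.68 ± 0.172 FPKM (log2 fold change 0.86, adjusted p = 0.000165). Rheb, the small GTPase that turns on mTORC1, fell from 158.66, 158.93 and 185.74 FPKM to 68.37, 74.98 and 73.74 FPKM (log2 fold change -1.23, adjusted p = 1.21e-05). Eif4ebp1, the repressor of translation that mTORC1 switches off, fell from 359.5 ± 41.3 to 192.8 ± 10.4 FPKM (log2 fold change -0.92, adjusted p = 0.000108), or by 0.61 with the length trend removed. Of 3 genes for RNA-binding proteins of the Igf2bp family, named for binding the Igf2 transcript, Igf2bp1 was called lower (0.43 ± 0.0361 to 0.26 ± 0.01 FPKM, adjusted p = 0.001), and Igf2bp2 and Igf2bp3 were not called (adjusted p = 0.894 and 0.12). Igf2bp2 was the most abundant of them, at 54.74 to 62.29 FPKM over all libraries.

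**Figure D5:**
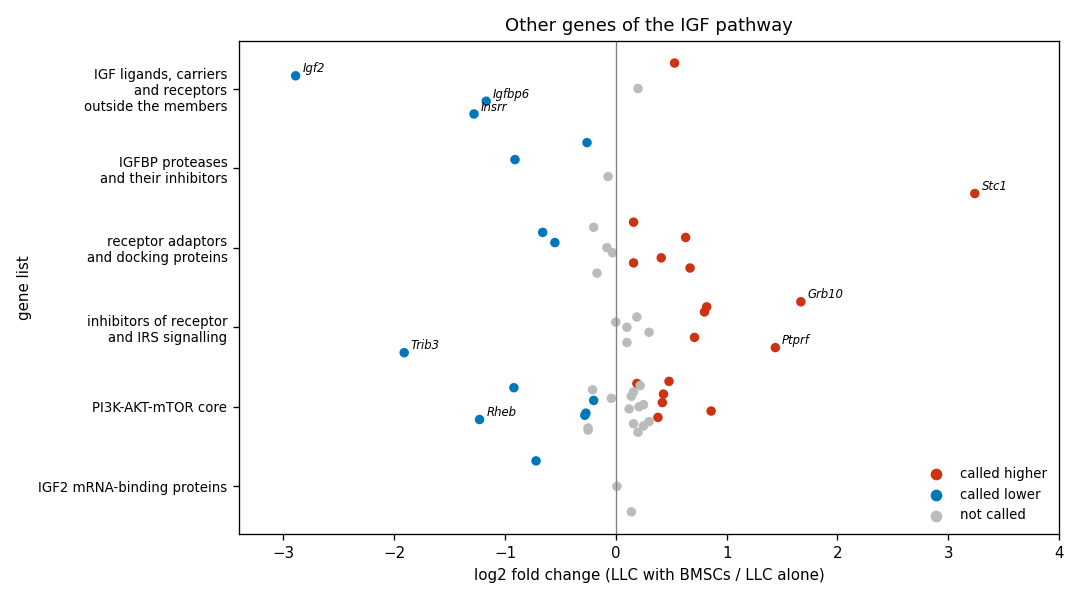
Log2 fold change of LLC with BMSCs over LLC alone (horizontal axis) for the 59 tested genes of the 6 pathway lists (rows), in red where called higher, blue where called lower and grey where not called, with names beyond a change of 1. Stc1 at 3.24 and Igf2 at -2.89 lie farthest out, and most genes of the PI3K-AKT-mTOR core lie near 0.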

How the data were processed

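RNA sequencing of 3 LLC alone and 3 LLC with BMSCs libraries was analysed, with groups and replicate numbers from the labels. Per the paper's methods, RNA from sorted cells was sequenced as mRNA on the BGISEQ-500, while the labels name Illumina protocols. The submitters' processing notes name HISAT, StringTie, Cufflinks and GATK and the build mm8, with no role. The authors deposited estimated counts, which need not be whole, and FPKM values per gene and transcript. Both are shared out between features that reads cannot tell apart. A series-wide FPKM table of 6 sample columns repeated these values and was not used. Coordinates are from the GENCODE M21 annotation of GRCm38, matched by symbol, since the files used hold none. Promoter sequences are from RefSeq.

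Counts were rounded and tested with edgeR 4.0.16 in R 4.3.3 (TMM, default filter, quasi-likelihood test, Benjamini-Hochberg over all tested genes, threshold 0.05). Standard errors follow from the fold change and its test statistic. Ratios, shares and isoforms were compared by exact two-sided permutation tests with SciPy 1.17.1. The length trend was removed as a lowess offset (span 0.3) per library. Alternatives used DESeq2 1.42.0, limma 3.58.1 on log2(FPKM + 1) and log2(FPKM + 0.1), other scaling factors and filters, a replicate block, the closest libraries of each group summed, and each library left out. The code was tested on simulated data. The closest replicates still differed beyond sampling noise (median chi-square 1.68 times its expected value) and were kept apart. Members and lists were chosen with earlier results of these data known. Named pathway genes were up to 2 called genes with the largest rise and 2 with the largest fall per list, and Igf2, Igf2r, Pappa, Stc2, Grb10 and Akt1. A further gene of this rule is not reported here. Of the marker lists, genes were named where they were the most abundant or define the type, and lists near the floor are given by their sums. Intervals and floors cover counting error only.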

Additional observations from a re-analysis of the deposited data

How the results depend on the processing

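Of 147 values of the members' log2 fold changes under 19 alternatives, 144 kept their direction and their side of the threshold, 3 were no longer past it and 0 reversed. The 3 were Igf1r with the length trend removed (0.10) and with the replicate block as well (0.11, adjusted p = 0.211), and Insr with the trend removed (0.13). With the block as well, Insr was again called at 0.13 (adjusted p = 0.0493). With the length trend removed, 2 members were thus called higher in place of 4, and 23 pathway genes were called lower in place of 14 when the replicate block was added to it. Requiring a change of 1 or more on the log2 scale left 1155 genes higher and 957 lower, and 1 member higher and 2 lower. Over the other alternatives 3364 to 4758 genes were called higher and 3301 to 4573 lower. Igfbp3 gave no value with at least 10 counts in every library, and neither Igfbp3 nor Igfbp5 gave any in the filtered limma fits.

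Leaving out each library moved the log2 fold change between 0.44 and 0.56 for Igf1r, 0.35 and 0.56 for Insr, -0.84 and -0.66 for Irs1, -1.42 and -1.10 for Irs2, 0.43 and 0.56 for Igfbp4, -1.20 and -0.92 for Igfbp5, and -0.77 and -0.57 for Igfbp7. The fitted value of Igfbp3, which depends on the prior count, ran from 5.13 to 7.63, the highest without LLC alone replicate 2, which holds its only count in that group. Differences near 0 changed sign. The log2 ratio of Igf1r to Insr ran from -0.0105 to 0.115. In percentage points, the main Igf1r transcript ran from -1.38 to 3.43, its assembled transcript from -3.99 to 0.825, and the rarest Igfbp4 transcript from -0.0242 to 0.0589.

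The replicate numbers did not pair the libraries (correlations of deviations 0.076, -0.106 and 0.057), and the replicate block gave 4161 genes higher and 4058 lower and changed no member's call. Depth limits Igfbp2, Igfbp3, Igf2, Stc2, Grb10 and Grb14, which rest on few fragments, and 3 libraries per group limit the permutation tests to p = 0.1.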

Other observations

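The following quantities were chosen after the values had been seen, and no weight is put on their tests. The summed FPKM of the receptors Igf1r and Insr over that of the substrates Irs1 and Irs2 was 0.992 ± 0.0912 in LLC alone and 2.6 ± 0.0651 in LLC with BMSCs (SD, n = 3 each, exact permutation p = 0.1). It ran from 0.917 to 1.09 in LLC alone and from 2.56 to 2.67 in LLC with BMSCs, with no overlap. Igf1r, Insr and Irs1 are all long genes, while Irs2, at 4015 bases, lies outside the longest bin. Leaving out any library kept the difference of the log2 ratio between 1.34 and 1.46. The ratio was not computed with the length trend removed. Under that setting the log2 fold changes were 0.10 for Igf1r, 0.13 for Insr, -1.05 for Irs1 and -1.29 for Irs2.

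With Igfbp6 counted among the binding proteins, Igfbp4 made up 58.7% ± 1.84 of their summed FPKM in LLC alone and 77.3% ± 1.69 in LLC with BMSCs (SD, n = 3 each). Igfbp7 made up 33.5% ± 1.86 and 19.3% ± 1.42, and Igfbp6 itself 7.64% ± 0.105 and 3.19% ± 0.266.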
